A study of Mus musculus with 11 samples.

Results

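In Dnmt3a f/f Mx1-Cre+ mice, in which Cre can delete the floxed DNA methyltransferase gene Dnmt3a, 761 of 98054 autosomal 1000-bp tiles were less methylated than in Mx1-Cre- controls in both progenitor types that were profiled. A tile was counted when every knockout library was below every control library, with group means at least 15 points apart, in LSK cells and again in GMP cells. A point is 1 percentage point of methylation level, the share of sequenced C residues at CpG sites that stayed C after bisulfite conversion. Tiles started at fixed positions of the genome and needed at least 3 C positions with at least 10 reads in all 10 libraries with a group. The tiles were thus chosen by the measured levels themselves. Their losses are therefore a description of what the choice fixed, and no test of them is read as a result.

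The knockout animals were Dnmt3a f/f Mx1-Cre+ and the controls Dnmt3a f/f Mx1-Cre-, all on the C57BL/6 strain, so that both groups carried the floxed alleles. The labels give 5 injections of poly(I:C), which switches on Mx1-Cre through interferon, as the treatment of all samples, and the series' design text, which speaks of transcriptomes, gives an age of 12 months. Bone marrow cells were sorted as LSK (Lin- Sca1+ cKit+, the fraction that holds the stem cells) or GMP (Lin- Sca1- cKit+ CD34+ FcgR+, granulocyte-macrophage progenitors). The libraries with a group were 3 knockout LSK (1327, 1333 and 1334), 3 control LSK (1326, 1330 and 1331), 2 knockout GMP (178 and 179) and 2 control GMP (346 and 349). The labels of a further GMP library, 352, contradict each other (Cre-positive in the title, Cre-negative under genotype), and it was put in no group. Mx1-Cre acts in interferon-responsive cells of many tissues and can leave some alleles unrecombined. A level between 0 and 100% in such bulk DNA can come from a share of the cells or from a share of the molecules in each cell, and these cannot be told apart.

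Dnmt3a adds methyl groups to unmethylated CpG sites, whereas Dnmt1 copies existing methylation onto new DNA strands at each division. In mouse blood stem cells, loss of Dnmt3a is known to favour self-renewal over differentiation and to lower methylation at many sites, among them the edges of large unmethylated regions. DNMT3A is among the genes most often mutated in human clonal haematopoiesis and acute myeloid leukaemia.

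A few promoters show what such a tile looks like at the level of single sites. They are the protein-coding genes whose tile held at least 3 measured CpG sites within 250 bases before the start of transcription. Each line gives these 250 bases from RefSeq on assembly GRCm38.p6, 5′ to 3′ on the gene's strand, and capitals mark the CpG sites with reads in all 10 libraries.
Palm3: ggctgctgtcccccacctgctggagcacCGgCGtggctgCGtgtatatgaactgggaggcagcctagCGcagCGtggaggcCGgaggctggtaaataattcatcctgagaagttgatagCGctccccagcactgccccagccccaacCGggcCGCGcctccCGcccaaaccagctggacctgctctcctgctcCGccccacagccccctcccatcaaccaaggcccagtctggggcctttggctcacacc
Arhgef10l: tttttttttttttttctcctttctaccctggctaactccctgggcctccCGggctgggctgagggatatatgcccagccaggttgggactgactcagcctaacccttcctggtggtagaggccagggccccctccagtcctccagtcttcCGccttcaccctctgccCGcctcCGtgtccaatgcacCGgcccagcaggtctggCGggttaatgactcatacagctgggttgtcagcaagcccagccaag
Arpp21: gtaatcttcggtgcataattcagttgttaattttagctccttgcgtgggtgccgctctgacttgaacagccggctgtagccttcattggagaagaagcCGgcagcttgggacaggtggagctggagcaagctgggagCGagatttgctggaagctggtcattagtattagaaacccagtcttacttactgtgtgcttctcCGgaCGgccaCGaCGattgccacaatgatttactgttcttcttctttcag
Ddr1: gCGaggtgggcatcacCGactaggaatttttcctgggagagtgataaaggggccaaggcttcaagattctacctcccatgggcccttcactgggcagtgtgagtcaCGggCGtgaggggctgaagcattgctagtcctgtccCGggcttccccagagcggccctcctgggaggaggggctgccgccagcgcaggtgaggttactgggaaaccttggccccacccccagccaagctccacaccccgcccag
Dgka: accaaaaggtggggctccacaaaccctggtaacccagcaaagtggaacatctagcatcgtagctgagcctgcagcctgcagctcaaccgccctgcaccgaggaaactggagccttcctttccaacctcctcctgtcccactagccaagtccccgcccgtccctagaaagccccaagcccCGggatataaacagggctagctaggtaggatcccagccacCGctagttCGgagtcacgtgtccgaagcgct
Tomm20l: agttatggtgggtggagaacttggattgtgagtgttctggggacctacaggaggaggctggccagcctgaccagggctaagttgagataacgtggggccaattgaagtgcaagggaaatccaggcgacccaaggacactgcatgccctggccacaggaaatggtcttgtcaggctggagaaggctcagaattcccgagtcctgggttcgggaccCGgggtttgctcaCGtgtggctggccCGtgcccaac

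These bases are chr8:84021224-84021473 on the plus strand for Palm3, chr4:140665906-140666155 on the minus strand for Arhgef10l and chr9:112187767-112188016 on the minus strand for Arpp21. They are chr17:35702045-35702294 on the minus strand for Ddr1, chr10:128737613-128737862 on the minus strand for Dgka and chr12:71111178-71111427 on the plus strand for Tomm20l. All 197380 C positions of the files that fall in RefSeq promoter windows stand on a C of the RefSeq sequence, so the builds match.

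Within a promoter the loss was uneven from site to site. In Palm3, which encodes a paralemmin, all 12 marked sites were lower in knockouts of both cell types. The site 178 bases before the start was at 14.6% in knockout LSK, against 61.0% in control LSK, and stood at 43.0% in knockout GMP and 65.1% in control GMP. The site 57 bases before the start kept 72.7% in knockout LSK, against 85.8% in control LSK, and 82.3% in knockout GMP, against 95.5% in control GMP. In Arpp21 the 2 sites farthest from the start, at 152 and 113 bases, differed by -1.7 and +1.9 points in LSK and by -6.7 and -7.9 points in GMP, knockout minus control. The 4 sites from 50 to 37 bases before the start differed by -22.4 to -35.3 points in LSK and by -15.2 to -39.0 points in GMP. In Arhgef10l, which encodes a guanine nucleotide exchange factor, the site 63 bases before the start was low in controls too, at 2.4% in knockout LSK, against 18.4% in control LSK.

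Ddr1 encodes a collagen receptor kinase. Its site 140 bases before the start averaged 20.5% in knockout LSK and 53.4% in control LSK, and 26.8% in knockout GMP and 56.8% in control GMP. Dgka encodes a diacylglycerol kinase. Its 3 sites averaged 39.4% to 69.6% in knockout LSK, against 76.9% to 93.6% in control LSK. The Dgka site 23 bases before the start differed by only -3.1 points in GMP. The 3 sites of Tomm20l were already low in controls, at 10.5% to 31.4% in control LSK, and averaged 3.6% to 10.4% in knockout LSK.

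Of the 98054 tiles, 2284 (2.33%) met the rule in LSK and 1660 (1.69%) met it in GMP. The 761 tiles that met both (0.776% of all tiles) were 33.32% of the LSK list and 45.84% of the GMP list. The opposite direction was rare, with 20 tiles (0.0204%) higher in knockout LSK, 237 (0.242%) higher in knockout GMP and 0 (0.0%) higher in both. Another 8 tiles (0.00816%) were lower in LSK and higher in GMP, and 8 (0.00816%) the other way round. Only tiles with enough methylation can fall, and 70059 tiles had a control mean of at least 15% in both cell types. They are called able tiles below.

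**Figure D1:**
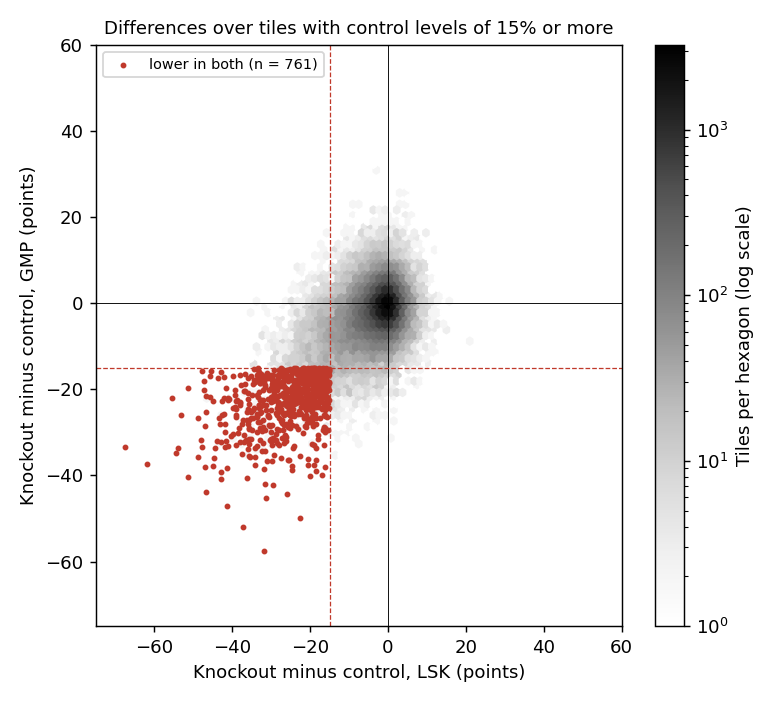
Difference in level, knockout minus control, in LSK (x axis, percentage points) and GMP (y axis, percentage points). Grey hexagons count all able tiles on a log scale, red points are the 761 chosen tiles, and dashed lines mark -15 points: most able tiles lie near 0 and the chosen ones spread down to -67.39 points in LSK and -57.55 points in GMP.

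Over the 761 tiles the difference had a median of -23.23 points in LSK (quartiles -30.03 and -18.68) and -20.84 points in GMP (quartiles -25.69 and -17.38). Able tiles outside the list had medians of -0.895 points in LSK and -1.009 points in GMP. A loss of at least 30 points was seen at 193 tiles in LSK, at 99 in GMP and at 56 in both. The LSK loss was the larger one at 492 tiles, a count taken at the chosen tiles only, with no like count over all tiles. Across the 761 tiles the LSK and GMP differences had a Pearson correlation of 0.391, against 0.4065 across all able tiles, and the points share their libraries. The median tile kept 58.5% of its control level in knockout LSK and 66.65% in knockout GMP, so most tiles kept part of their methylation. Knockout means under 10% were reached at 81 tiles in LSK, at 10 in GMP and at 7 in both.

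At the tiles nearest to the threshold, 1 of the 2 differences was close to -15 points. Just inside lay a tile in Cacna1c and Dcp1b (-15.01 points in LSK and -18.53 in GMP) and a tile in Cpsf4l (-27.41 and -15.01). Just outside lay a tile near Mycn (-21.04 in LSK and -14.9998 in GMP) and a tile in H2-M5 (-25.95 and -14.9936).

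The losses were graded between libraries of 1 group. The median level of the 761 tiles was 39.09%, 34.07% and 33.33% in knockout LSK libraries 1327, 1333 and 1334, against 62.23%, 63.96% and 63.11% in control LSK libraries 1326, 1330 and 1331. It was 40.95% and 48.54% in knockout GMP libraries 178 and 179, against 69.26% and 69.01% in control GMP libraries 346 and 349. Library 1327 was the highest of the knockout LSK libraries at 463 tiles, and 178 was below 179 at 602 tiles. Both counts were taken at the chosen tiles only, with no like counts over all tiles, so they are not read as particular to them. At the other able tiles the medians were 93.04% in 1327, 92.06% in 1333 and 92.17% in 1334. They were 92.23% in 178 and 92.33% in 179. The controls of a cell type differed little from each other.

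**Figure D2:**
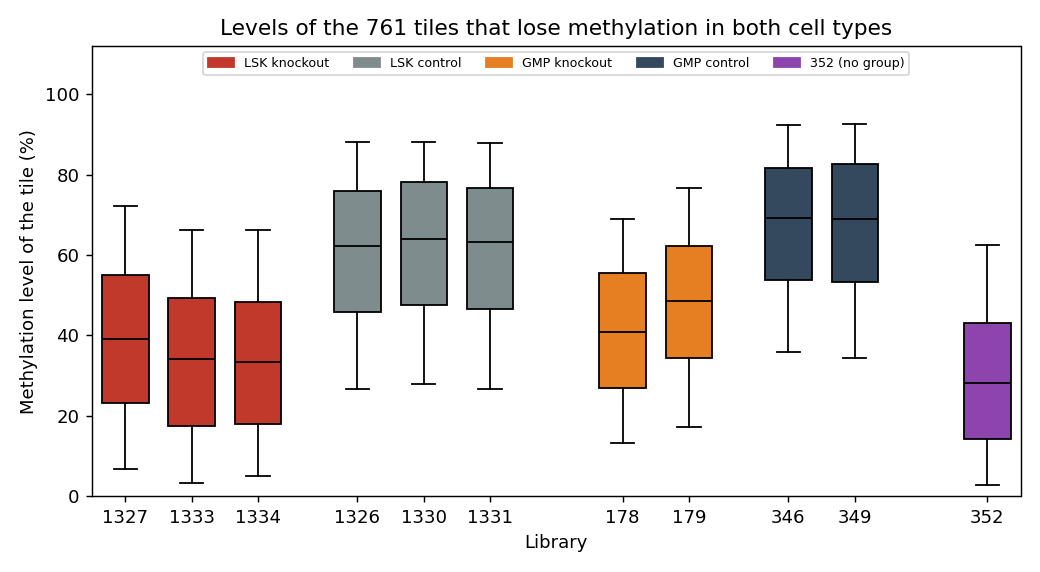
Methylation level (y axis, %) of the 761 tiles in each library (x axis). Boxes show the median and quartiles and whiskers the 5th and 95th percentiles; medians were 33.33% to 39.09% in knockout LSK and 62.23% to 63.96% in control LSK, 40.95% and 48.54% in knockout GMP and 69.01% and 69.26% in control GMP, and 28.08% in library 352.

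A stretch of Dnmt3a itself, chr12:3903653-3904031, was examined as the check of the targeted gene. It was found as the longest run of C positions listed in every control library and in none of the 3 knockout LSK libraries, so 0 of its 5 positions in knockout LSK is no separate test. Knockout GMP library 178 listed 4 of the 5 and 179 listed all 5. Relative to 10 kb on either side, coverage of the stretch was 27.95% in 178 and 53.32% in 179 of the control GMP mean. The files list a position only from 10 reads upwards, so an unlisted position is not a count of 0. Both knockout GMP libraries thus kept reads over this segment, and 179, with more of them, also kept the higher median level at the 761 tiles. With 2 libraries this is a description, and the part of the kept reads in the smaller GMP losses was not tested.

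Coverage summed over C positions was 157383978 to 181114671 reads in the LSK libraries and 95413711 to 109746927 in the GMP libraries. The median listed position had 85 to 103 reads in LSK and 50 to 59 in GMP. Levels from fewer reads are less precise, so GMP values carry the larger counting error. Library 1333 alone listed 118988 C positions found in no other library, against 6313 to 35250 for the others, and 1326 and 1327 listed more Y-chromosome positions (1470 and 1422) than the other LSK libraries (211 to 229). In 30 windows of 5 Mb, at least 10 C positions were listed in only 1 genotype of a cell type. Such a position had at least 20 reads in every library of that genotype and was listed in none of the other. Both directions were counted together and had to reach 1% of the positions listed in every library of the cell type. These windows, 28 of them found in GMP, held 8.41% of the chosen tiles and 6.588% of all tiles. They held 10.36% of the tiles that met the rule as lower in knockout GMP and 27.43% of those higher in it. Their part in the losses and gains there was not tested. Outside the windows 697 of the chosen tiles remained.

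Library 352 did not help to choose the tiles, and its values stand beside both GMP groups. It had reads at 760 of the 761 tiles, with a median level of 28.08%. It was below both knockout GMP libraries at 634 tiles. This count was taken at the chosen tiles only, with no like count over all tiles, so it is not read as particular to them. Over all tiles its median level was 84.36%, against 85.55% in 178 and 86.09% in 179. At 716 of the chosen tiles (94.21%) library 352 was at or below the highest knockout GMP library. With the tiles chosen again, that share was 83.8% without 179 and 88.68% without 178. Only 1 knockout GMP library is then left as the highest, so the condition is stricter and these shares are not like for like. At 37 tiles library 352 lay between the groups and at 7 it was at or above the lowest control. Among able tiles outside the list it was at or below the highest knockout GMP library at 69.51%, without a match on control level. Its level minus the control GMP mean had a median of -36.74 points at the chosen tiles and -1.283 points at the other able tiles. It listed 0 of the 5 C positions of the Dnmt3a segment.

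The 2280 tiles of the LSK list that 352 also measured were not chosen with any GMP library. At 95% of them 352 was below the lowest control GMP library, against 47.3% of the able tiles outside the 761. Knockout GMP library 178 was below it at 83.73% of the LSK list and 179 at 74.56%, against 42.91% and 43.19% of the able tiles outside the 761. The chosen tiles are part of that list and met this condition in 178 and 179 by choice. The able tiles outside the 761 include other tiles of that list and were not matched on control level. Their median control GMP level was 93.28%.

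**Figure D3:**
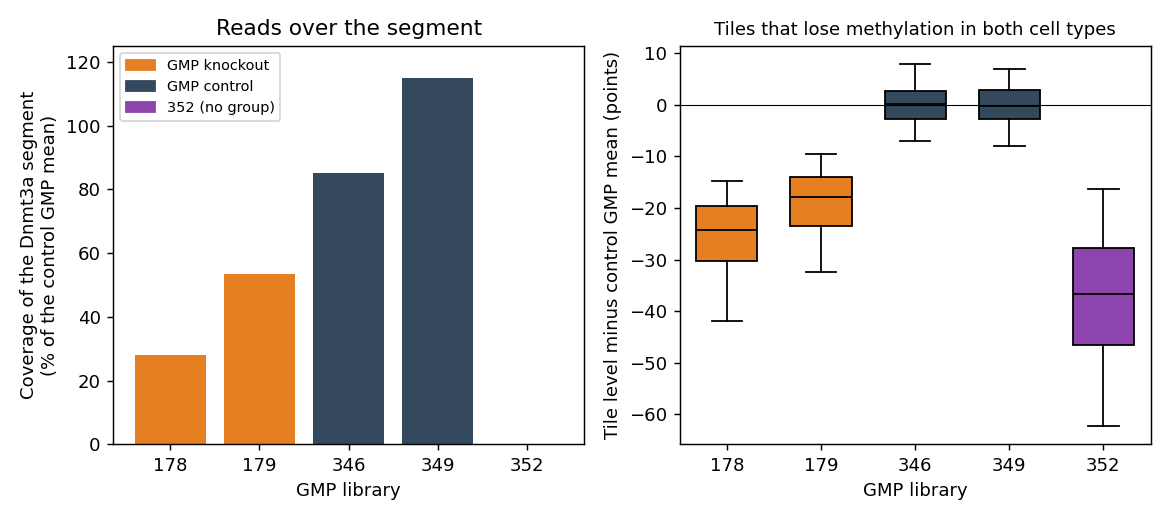
Left, bars starting at 0 give the coverage of the Dnmt3a segment, relative to 10 kb on either side, in each GMP library (x axis) as a percent of the control GMP mean (y axis): 27.95% and 53.32% in knockout libraries 178 and 179, 85.24% and 114.8% in controls 346 and 349, and no listed position in 352. Right, level of the chosen tiles minus the control GMP mean (y axis, percentage points), with boxes for the median and quartiles and whiskers for the 5th and 95th percentiles: 352 lies lowest, with a median of -36.74 points.

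Among the tiles where 352 was lowest against the midpoint of the GMP groups were tiles in Macrod1, Msi2 and the overlapping Myo1h and Kctd10. At the tile in Macrod1, an ADP-ribosyl hydrolase (chr19:7187001-7188000, 3 C positions), the level was 53.0% and 62.2% in knockout GMP and 82.2% and 82.6% in control GMP, and 8.9% in 352. The same tile had 13.6%, 3.2% and 7.1% in knockout LSK, against 44.9%, 42.4% and 40.3% in control LSK. Where 352 was highest against that midpoint, it lay among the control values. At the Tomm20l promoter tile it had 26.6%, against 12.0% and 5.0% in knockout GMP and 32.6% and 21.0% in control GMP. The next tiles lay near Rpl38 (58.4% in 352, against 50.2% and 64.9% in control GMP) and in Gm51876 (33.3% in 352, against 31.1% and 35.1% in control GMP).

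The tiles that lost most in both cell types lay mainly inside genes, as did 80.42% of all chosen tiles and 72.64% of all tiles. Ranked by the smaller of the 2 losses, the first 10 lay in Atp6v1a, Nol4l, Pou2f2, Atg7, Neurl1b, Ltbp3, Gnai2 and Nfix and near Ap1m1 and Hsf2bp. The Atp6v1a tile (chr16:44118001-44119000, 3 C positions) lies in the gene of a catalytic subunit of the vacuolar proton pump. It had 10.6%, 6.5% and 5.4% in knockout LSK, against 57.8%, 45.8% and 58.8% in control LSK, and 27.0% and 55.7% in knockout GMP, against 84.1% and 86.4% in control GMP. The groups stood far apart in both cell types, and library 179 kept about as much as control LSK. In Pou2f2, the gene of the B cell factor Oct2 (chr7:25121001-25122000, 5 C positions), levels were 31.2%, 16.6% and 13.2% in knockout LSK and 73.4%, 71.8% and 69.5% in control LSK. In GMP the Pou2f2 tile had 38.9% and 47.8% in knockouts and 81.7% and 85.6% in controls.

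Gnai2 encodes an inhibitory G-protein subunit that carries chemokine receptor signals. Its tile (chr9:107630001-107631000, 4 C positions) had 10.3%, 18.03% and 10.2% in knockout LSK, against 75.6%, 73.7% and 74.4% in control LSK. In GMP it had 38.2% and 45.3% in knockouts and 78.0% and 80.3% in controls. Control levels were alike in the 2 cell types, while the knockout LSK libraries were all lower than the knockout GMP libraries. Atg7, which encodes an activating enzyme of autophagy (chr6:114738001-114739000, 8 C positions), had mean differences of -42.8 points in LSK and -39.3 points in GMP.

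Some of these tiles rest on many sites. Neurl1b, a ubiquitin ligase of Notch ligands (chr17:26439001-26440000), was measured at 37 C positions, of which 36 were lower in both cell types. It had 23.2%, 29.1% and 19.6% in knockout LSK, against 65.4%, 73.0% and 74.1% in control LSK, and 41.4% and 57.3% in knockout GMP, against 87.4% and 87.3% in control GMP. Ltbp3, which encodes a protein that binds latent TGF-beta, had 4 chosen tiles out of 10 measured. The tile chr19:5756001-5757000 had 15 C positions and mean differences of -45.0 points in LSK and -37.7 points in GMP. Kcnn4, a calcium-activated potassium channel gene named here after its values were seen, had 46 C positions in 1 tile (chr7:24377001-24378000), all 46 lower in both cell types. It averaged 10.3% ± 3.6 in knockout LSK and 46.5% ± 4.6 in control LSK (SD, n = 3 each), and 43.2% ± 5.3 in knockout GMP and 83.9% ± 2.1 in control GMP (SD, n = 2 each).

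In all, 212 tiles had 3 C positions and 35 had 20 or more, with a median of 5 and a range of 3 to 69. The tile with 69, in Casz1 (chr4:148952001-148953000), was also picked out after its values were seen. It was lower in both cell types at 67 of the 69 positions, by -32.7 points on average in LSK and -16.5 in GMP. Of the 5211 C positions in all chosen tiles, 4814 (92.38%) were lower in both cell types, and at 509 tiles every position was. The loss was thus spread over the positions of a tile at most tiles, a property that the choice by summed reads favours.

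**Figure D4:**
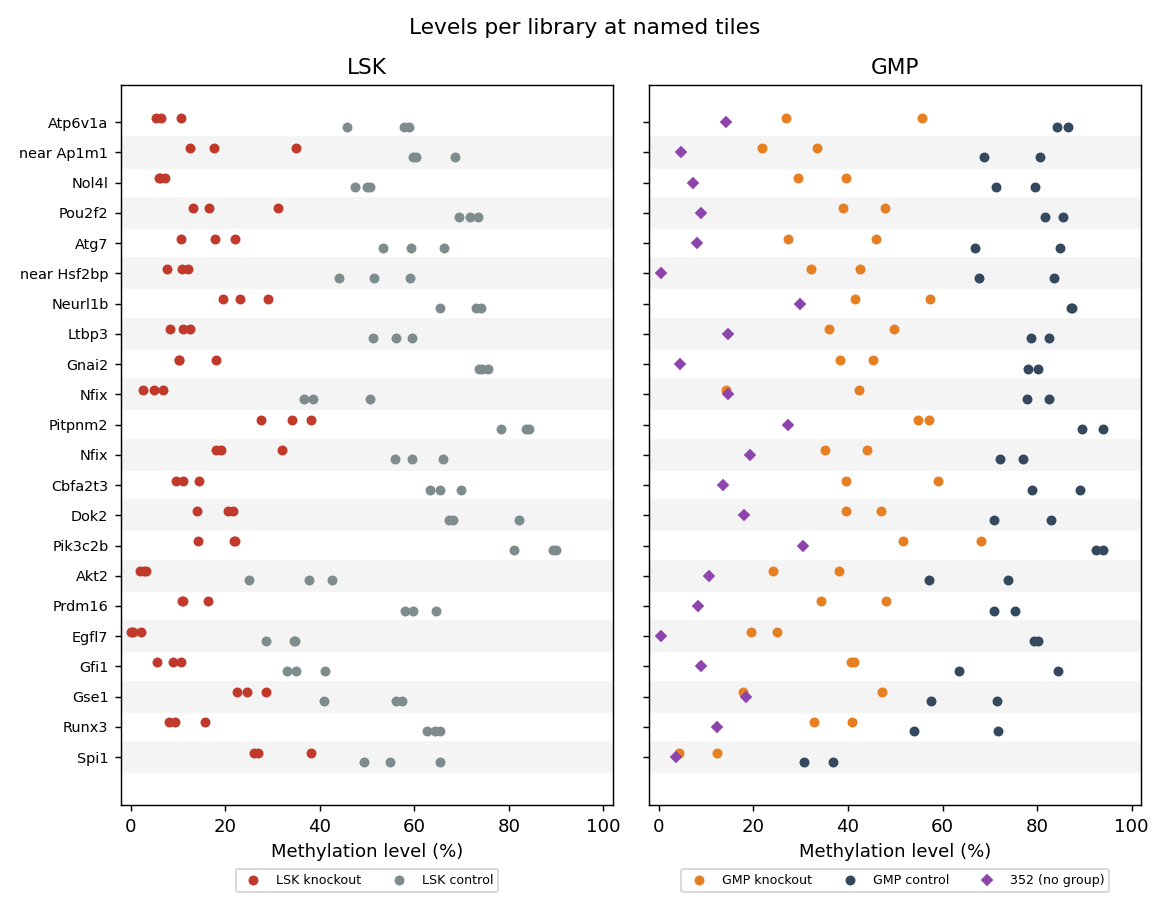
Methylation level (x axis, %) of each library at 22 tiles (rows): the 10 with the largest smaller loss, then 12 tiles in genes of the gene lists. Knockout libraries are drawn above controls in LSK (left) and GMP (right), and diamonds give library 352; knockout and control points do not overlap at any tile, as the choice requires.

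Genes with several chosen tiles included regulators of stem cells. Chosen tiles overlapped 537 genes, 68 genes held at least 2 and 15 held at least 3. Gse1 held 8 of its 108 measured tiles, Nfix 5 of 25, Pitpnm2 5 of 33, Prdm16 5 of 63, Runx3 5 of 18, Hlf 4 of 6, Ltbp3 4 of 10 and Zmiz1 4 of 33. Those with 3 included Arhgef10l, Ephb2, Mn1, Nfatc1, Septin9 and Zbtb16. Outside genes, 4 tiles had Hes1, a target of Notch signals, as their nearest gene and 3 had Med13l. Adjacent tiles are not independent, and the 761 tiles made 730 separate regions, 27 of them of 2 or 3 adjacent tiles.

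Among 30 genes of stem cell transcription factors and self-renewal, 11 held chosen tiles, which made up 27 of the 393 measured tiles of that list (6.87%, against 0.776% of all tiles). This list, like the others below, was drawn up with earlier results of these data known, so the share is a description. Hlf, a bZIP factor that marks stem cells, differed by -18.68 to -33.10 points in LSK and by -16.21 to -32.61 points in GMP over its 4 tiles. At chr11:90347001-90348000 (12 C positions) it had 13.6%, 19.5% and 12.5% in knockout LSK, against 47.8%, 51.6% and 45.5% in control LSK. In GMP this Hlf tile had 27.4% and 32.7% in knockouts and 47.0% and 47.5% in controls.

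Runx3, a Runt-domain factor, had 5 tiles, of which 3 were adjacent (chr4:135154001-135157000). The one at chr4:135156001-135157000 had 37.1%, 13.03% and 28.96% in knockout LSK, against 81.0%, 82.0% and 82.3% in control LSK. Its GMP levels were 51.6% and 73.5% in knockouts and 81.7% and 87.5% in controls. The loss in GMP was thus less than in LSK, and 179 stood close to the controls. Cbfa2t3, a corepressor also known as ETO2, had 2 tiles with differences of -54.5 and -47.0 points in LSK and -34.7 and -28.5 points in GMP.

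Nfix, of the nuclear factor I family, had a tile of 7 C positions (chr8:84721001-84722000) at 5.0%, 6.9% and 2.7% in knockout LSK, against 50.7%, 38.5% and 36.6% in control LSK. In GMP it had 14.3% and 42.3% in knockouts and 77.8% and 82.6% in controls. The GMP knockouts of this tile were far apart from each other, and 352 had 14.6%. Msi2, an RNA-binding protein of stem cells (chr11:88468001-88469000), differed by -32.9 points in LSK and -25.5 points in GMP.

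Prdm16 and Gfi1, zinc-finger regulators of stem cells, need a caution. The 5 Prdm16 tiles differed by -24.32 to -47.97 points in LSK and by -15.54 to -31.88 points in GMP, and Gfi1 (chr5:107721001-107722000, 32 C positions) by -28.0 and -33.0 points. All of them lie in windows where C positions were listed in 1 genotype only, as do the Mn1, Pik3r1, Pik3cg and Runx2 tiles. Mecom, Runx2 and Zfpm1 had 1 chosen tile each, with differences of -16.0 to -19.6 points in LSK and -16.5 to -22.8 points in GMP.

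Of 19 measured genes of myeloid factors and granule proteins, Spi1 and Gfi1 held 1 tile each, 2 of 65 tiles (3.08%). Spi1 encodes PU.1, a factor of myeloid and B cell fate, and its tile lies at chr2:91113001-91114000 (3 C positions). It had 26.8%, 38.1% and 26.1% in knockout LSK, against 54.9%, 49.4% and 65.4% in control LSK, and 4.2% and 12.2% in knockout GMP, against 30.8% and 36.8% in control GMP. Both GMP groups of this tile had lower values than the LSK group of the same genotype, but neither difference passed the test described below. Of 19 measured lymphoid and erythroid-megakaryocytic genes, Epor, Itga2b and Zbtb16 held 5 of 188 tiles (2.66%). Among 36 cytokine, JAK-STAT and RAS-MAPK genes only Rasgrp2 and Dok2 held a tile, 2 of 194 (1.03%), near the share over all tiles. Dok2, an adaptor that dampens tyrosine kinase signals, had 20.6%, 14.1% and 21.7% in knockout LSK, against 68.3%, 82.2% and 67.3% in control LSK.

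Of 20 phosphoinositide signalling genes, 5 held 9 of 179 tiles (5.03%). Pik3c2b, a class II phosphoinositide 3-kinase (chr1:133084001-133085000, 5 C positions), had the largest LSK difference of all 761 tiles, -67.39 points. It had 22.2%, 21.9% and 14.2% in knockout LSK, against 81.2%, 90.03% and 89.2% in control LSK. In GMP it had 51.7% and 68.2% in knockouts, against 92.6% and 94.0% in controls, a loss of about 33.3 points. Pitpnm2, a phosphatidylinositol transfer protein, held 5 tiles with LSK differences of -20.85 to -48.81 points and GMP differences of -19.66 to -36.65 points. The Akt2 tile (chr7:27596001-27597000) was nearly empty in knockout LSK, at 3.2%, 2.7% and 1.9%, against 37.7%, 42.6% and 25% in control LSK.

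Of 24 measured genes of G-protein, chemokine and related signalling, Gnai2, Rgs3, Dock8 and Arhgap9 held 6 of 159 tiles (3.77%). Arhgap9, which encodes a GTPase-activating protein, had both of its 2 measured tiles chosen. The one with 60 C positions (chr10:127326001-127327000) had 6.6%, 6.6% and 4.2% in knockout LSK, against 29.3%, 19.3% and 27.9% in control LSK, and 17.6% and 30.2% in knockout GMP, against 44.4% and 47.1% in control GMP. Of 18 measured adhesion and homing genes, Itga2b and Egfl7 held 2 of 76 tiles (2.63%). Egfl7, which encodes a secreted vascular protein (chr2:26585001-26586000, 4 C positions), had the largest GMP difference, -57.55 points. Its levels were 0.2%, 0.4% and 2.1% in knockout LSK, against 34.7%, 28.6% and 34.7% in control LSK, and 19.4% and 25% in knockout GMP, against 79.3% and 80.2% in control GMP. Library 352 had 0.4% there, at the level of the LSK knockouts.

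Chromatin regulators held 15 of 362 tiles (4.14%), among them tiles in Hdac5, Hdac7, Gse1 and Zeb2. Hdac5 and Hdac7 encode class IIa histone deacetylases. The Hdac5 tile chr11:102224001-102225000 (9 C positions) had 33.7%, 26.7% and 20.4% in knockout LSK, against 53.6%, 52.1% and 56.9% in control LSK, and 25.8% and 39.6% in knockout GMP, against 64.0% and 48.4% in control GMP. Its loss was thus of middling size, with the 2 GMP libraries of each group well apart. The leukaemia genes Mn1 and Cbfa2t3 held 5 of 153 tiles (3.27%). Of 13 measured housekeeping genes none held a chosen tile, 0 of 40, which is too few tiles to show a share lower than the 0.776% of all tiles.

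The chosen tiles came mainly from intermediate control levels. By the mean control level of both cell types, 6.30% of able tiles at 45 to 60% were chosen, 4.90% at 30 to 45%, 4.53% at 60 to 75%, 1.77% at 75 to 90% and 0.0583% at 90 to 100%. Chosen tiles had a median control LSK level of 62.59%, against 93.69% at the other able tiles. A tile near 100% could also have fallen by 15 points, yet few did.

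More of the chosen tiles lay in genes, 80.42% against 66.55% of the other able tiles, and fewer were intergenic, 19.58% against 33.45%. With both sets limited to a mean control level of 40 to 80%, the shares in genes were 78.57% and 65.39%. Outside chromosome 18, whose starts were not used, 92 of 741 chosen tiles (12.42%) lay within 1 kb of a start of transcription, against 6.19% of the other able tiles. At control levels of 40 to 80% these shares were 11.64% and 10.67%. The higher share near starts thus shrank at like control levels, while the share in genes kept its distance. Median coverage per C position was 88.21 reads at chosen tiles and 82.08 at the other able tiles.

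In 35 RefSeq promoter windows (250 bases before to 50 after a start) with C positions of a chosen tile, the median GC content was 59.67%, against 53.33% in 1610 promoters of other able tiles. The Runx motif TGTGGT was present on either strand in 20% of the 35, 18.70% of the 1610 and 16.69% of all 31396 promoters. GGAAGT, an ETS motif, was present in 17.14%, 24.16% and 23.91% of them, and the GATA motif AGATAA in 11.43%, 10.81% and 11.15%. The E-box CACGTG was found in 5.71%, 7.02% and 7.14%. The motifs were searched independently and may overlap. The MspI site CCGG was in 100% of the 35 windows and in 68.45% of the 1610. The 35 windows had to hold sequenced positions of a chosen tile, while the 1610 only had to be centred in another able tile. The part of this unlike choice in the GC content and in the motif and CCGG shares was not tested. Some of the 35 windows overlap, as they belong to different starts of the same gene.

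Tiles next to the chosen ones were also lower in knockouts, by less. Of 1138 tiles that were not chosen and began within 1 to 5 kb of a chosen tile, 109 (9.58%) passed the test as lower in knockout LSK. The share was 1.99% among the 96155 tiles farther away. It was 2.76% among all tiles, where 686 of the 2708 calls fell on chosen tiles. The test was a quasi-binomial model of the reads with a moderated F test, and a tile was called at an adjusted p (Benjamini-Hochberg over 98054 tiles) under 0.05 and a difference of at least 10 points. By distance, 17.05% of the tiles at 1 kb were called lower in LSK, 4.93% at 2 kb, 10.14% at 3 kb, 7.31% at 4 kb and 6.98% at 5 kb. Able tiles at 1 kb had a median difference of -6.36 points in LSK, against -0.880 points farther than 5 kb. Without control LSK 1330 the count of 109 was 69, and limma on logit levels gave 57. The same libraries chose the tiles, so the flanks share their library differences. Flanking and farther tiles were not matched on control level. Able tiles at control levels of 45 to 60% had a median difference of -4.87 points in LSK and -2.995 points in GMP. At 90 to 100% these medians were -0.520 and -0.835 points. The part of control level in the flank differences was not tested.

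In GMP 130 of the 1138 flanking tiles had an unadjusted p under 0.05 in the same test, in either direction. So did 5834 of the 96155 tiles farther away and 6680 of all 98054. Over all tiles, 143 were called lower in knockout GMP, and 104 of these were chosen tiles. Of the flanking tiles 2 (0.176%) were called lower, against 0.146% of all tiles and 0.0385% farther away. The limma alternative on logit levels called 0. Leaving out 1 library gave 0 to 10: it was 0 without 178, 346 or 349, 1 without 1326 or 1331, 4 without 1327 and 10 without 1333. Able GMP tiles at 1 kb had a median difference of -3.82 points, against -1.001 points farther than 5 kb. Flanks in GMP therefore leaned the same way as in LSK but were rarely called, in a comparison of 2 libraries with 2.

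**Figure D5:**
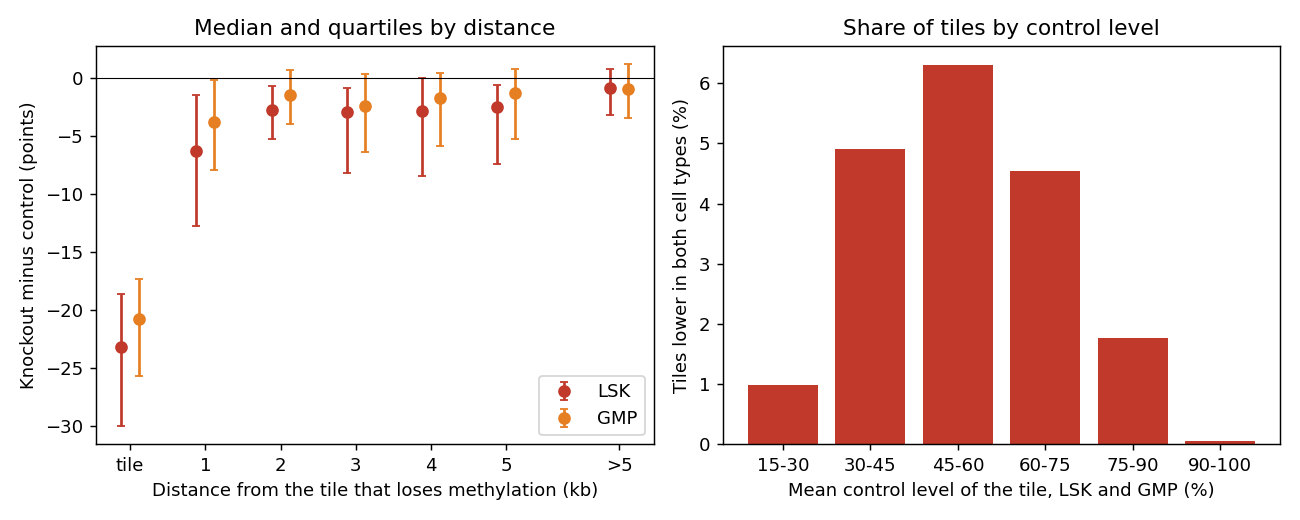
Left, median difference with quartiles as bars (y axis, knockout minus control, percentage points) at the chosen tiles and at able tiles 1 to 5 kb away and farther (x axis), for LSK and GMP: medians at 1 kb were -6.36 and -3.82 points, and those beyond 5 kb -0.880 and -1.001 points. Right, bars starting at 0 give the share of able tiles chosen (y axis, %) by mean control level (x axis, %), highest at 6.30% for 45 to 60%.

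Between the cell types, chosen tiles tended to be more methylated in GMP. In controls, 58 of the 761 were called higher in GMP than in LSK (7.62%, against 0.211% of all tiles) and 9 were called lower (1.18%, against 1.16% of all tiles), by the same test. The median difference, control GMP minus control LSK, was +5.79 points, and 585 of the 761 were above 0. Able tiles outside the list had a median of -0.00939 points, with 90 called higher and 878 called lower. With control levels of 40 to 80%, 41 chosen tiles of 518 were called higher and 9 lower, against 49 and 613 of 10083 others.

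The same control libraries helped to choose the tiles, and a tile whose control GMP libraries happen to be high is more easily chosen, so these calls are not independent of the choice. Tiles lower in knockout GMP and not in LSK had a like median of +6.69 points, and tiles lower in knockout LSK and not in GMP one of -2.36 points. The count of 58 fell to 16 without control GMP 346, to 13 without 349, to 35 without control LSK 1326 and to 33 without 1330 or 1331, and was 90 without knockout LSK 1333, which enters only the shared spread. The count of 9 fell to 4 without 346 or 349 and to 5 without 1331, and was 16 without 1333. The limma alternative gave 31 higher, and a fit of only the compared groups gave 94 higher and 17 lower. The labels give no batch. Cell type cannot be told apart from depth, since all GMP libraries were shallower, and the libraries also differed in chromosome Y positions, with 1226 to 1326 listed in each GMP library and 211 to 229 in 4 of the 6 LSK libraries.

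Egfl7 had the largest of these differences, +47.11 points (adjusted p = 0.000142, higher in 2 of 2 control GMP libraries than in any control LSK library). This call was lost in 1 of 13 alternative fits, whose adjusted p ranged from 1.454e-05 to 0.0631. Gfi1 was higher by 37.58 points (adjusted p = 0.000494), with 63.6% and 84.4% in control GMP and 35.0%, 41.1% and 33.1% in control LSK, and kept its call in all 13 (6.305e-05 to 0.0272). The calls of Macrod1 (+39.87 points) and Dst (+43.82 points), a cytoskeletal linker gene, were lost in 2 and in 4 of the 13. In the other direction Nebl, which encodes an actin-binding protein (chr2:17364001-17365000), differed by -42.38 points (adjusted p = 0.000179) and kept its call in all 13 (3.525e-05 to 0.0154). Nebl had 45.2% and 27.5% in control GMP, against 78.6%, 78.2% and 79.5% in control LSK. Dock9, an exchange factor for Cdc42, differed by -33.65 points and a tile shared by Cdh23 and Vsir by -32.65 points. Both calls were lost in 2 of the 13.

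Knockout GMP was also compared with knockout LSK. Of the 761 tiles, 127 were called higher in knockout GMP than in knockout LSK (16.69%, against 0.520% of all tiles) and 7 lower (0.920%, against 0.994% of all tiles). The median difference, knockout GMP minus knockout LSK, was +8.47 points, against +0.0363 points at the other able tiles. The same knockout levels chose the tiles, so neither the counts nor the differences are an independent test. Whether they exceed those in controls was not tested. The tiles named in the next paragraph were picked as the extremes of these differences. Tiles lower in knockout LSK and not in GMP had a median of +9.96 points, with 10.97% called higher, and tiles lower in knockout GMP and not in LSK had a median of -5.71 points. The count of 127 fell to 35 without 179, the knockout GMP library with the most reads over the Dnmt3a segment, and was 99 without 178; the part of those reads in the count was not tested. The lower count of 7 fell to 2 without 179 and to 4 without 178. The limma alternative gave 82 higher, and a fit of only the compared groups gave 69 higher and 4 lower.

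Macrod1 was higher by 49.61 points in knockout GMP and kept its call in all 13 alternatives. Pik3c2b was higher by 40.55 points, a call kept in all 13, with 51.7% and 68.2% in knockout GMP and 22.2%, 21.9% and 14.2% in knockout LSK. In controls the Pik3c2b tile did not pass the test, at 92.6% and 94.0% in control GMP and 81.2%, 90.03% and 89.2% in control LSK. The tile of Zc3h3, a zinc-finger protein gene, was higher by 44.76 points and lost its call in 1 of the 13. Dock9 was lower in knockout GMP (-47.59 points), as was Nebl (-44.22 points), and both calls were kept in all 13. Fry was also lower (-29.94 points) and lost its call in 1 of the 13. Dock9 had 11.1% and 21.5% in knockout GMP, against 73.5%, 61.7% and 56.4% in knockout LSK.

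The sorted cells were checked on marker genes of the cell types. Of 8 tiles in GMP markers, 5 were called lower in control GMP than in control LSK, in Mpo, Ctsg and Cebpe. Of 50 tiles in LSK markers 0 were called in either direction. Over all tiles 1.16% were called lower and 0.211% higher. A tile in the LSK marker Hoxa9 (chr6:52228001-52229000) was higher by 9.86 points in control GMP (adjusted p = 0.00465 in the same test), under the cut of 10 points. Of other cell types, most of which a lineage-negative gate should remove, 1 of 4 tiles in neutrophil genes, in Ltf, was called lower, and none of 29 B cell, 4 T cell, 2 erythroid and 11 endothelial tiles was called. Among marker tiles, 5 were among the 761, 4 in Hlf and 1 in Mecom. Methylation of marker genes shows no RNA level, so the purity of the sorts was not measured.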

How the data were processed

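The members and gene lists were chosen with earlier results of these data known. Enhanced reduced representation bisulfite sequencing libraries were made from MspI fragments of 150 to 400 bp and sequenced as 50-bp single-end reads, per the labels' protocols. Bismark, mm10 and GRCm38 are named in the submitters' processing notes, without a version. Per the file headers, the deposited files hold a read count per C position (the coverage, never under 10) and 2 values in percent, unconverted C and converted T. Multiplying count by percent returned whole methylated reads at all positions, with a tolerance of 0.0005% of the coverage. Both strands of a CpG count as C positions of their own.

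Reads were summed per 1000-bp tile and library (Python 3.11.15, pandas 2.3.3). Genes came from RefSeq tables of GRCm38.p6, which give transcription starts outside chromosome 18. Contrasts between cell types, and knockout against control at flanking tiles, were tested by a quasi-binomial logistic model with 4 groups and 10 libraries. The model was fitted to all tiles. Its knockout calls at the chosen tiles are no result, as the same contrast chose them, but they count in the shares over all tiles. The dispersion of each tile was moderated with limma 3.58.1 in R 4.3.3 (prior from tiles at 5 to 95%, dispersion kept at 1 or above). Calls needed a Benjamini-Hochberg adjusted p under 0.05 over 98054 tiles and 10 points. The method was tested on simulated data. No label ties a library to an animal of its own, so p-values measure only the spread between these libraries, which may be technical. Reads carry no molecular identifiers, so read counts give counting error only.

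Named were the 10 tiles with the largest smaller loss, genes with 3 or more tiles, members in or within 1 kb of a listed gene, the tiles around the threshold, the extremes between cell types and the extremes of 352. Alternatives were other thresholds, coverage, grids, levels, strand merging, left-out windows, priors, tests and left-out libraries. Sequences of the tiles themselves were not used here. Some named genes and tiles are not reported here.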

Additional observations from a re-analysis of the deposited data

Results flagged for a closer look

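Library 352, which entered no group, gave signals outside the comparisons. It was below both control GMP libraries at 753 of the 760 chosen tiles it measured. Among able tiles outside the list, not matched on control level, library 352 was below both at 47.3%. It listed 0 of the 5 C positions of the Dnmt3a segment that every control library lists. The 753 tiles and the 0 positions were picked out because 352 was not used in any comparison. Its labels conflict, and no genotype was drawn from these values.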

How the results depend on the processing

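The number of tiles lower in both cell types was 395 with 5 or more C positions per tile, and 1771, 316 and 146 with a difference of 10, 20 and 25 points. The share of tiles with 352 at or below the highest knockout GMP library was 91.97%, 97.78% and 97.93% at those differences and 96.45% with the mean of C position levels. The median difference in LSK was -18.45, -29.36 and -33.16 points at 10, 20 and 25 points, and that in GMP -30.45 at 25, as the threshold itself requires. Calls at the chosen tiles for control GMP against control LSK numbered 31 higher with limma on logit levels, and 94 higher and 17 lower with only the groups compared. For knockout GMP against knockout LSK they were 82 higher with limma, and 69 higher and 4 lower with only the groups compared. Flanking tiles lower in LSK were 57 with limma and 40 at 20 points, and in GMP 0 with limma, 13 with only the groups compared and 1 at 20 points. The cause of these shifts between tests was not tested.

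Leaving out 1 library gave 584 (without 178) to 1007 (without 179) tiles, a 352 share of 83.8 to 95.28%, and medians of -23.93 to -22.23 points in LSK and -22.25 to -20.27 points in GMP. It gave 13 to 90 tiles higher and 4 to 16 lower in control GMP, 35 to 175 higher and 2 to 9 lower in knockout GMP, and 69 to 123 flanks lower in LSK and 0 to 10 in GMP. A lone library left in a group was assumed to vary like the others. Without 178 or 179 the 352 share was taken against the remaining knockout GMP library alone, a stricter condition. Of 3932 recomputed values of named tiles (differences and adjusted p of called tiles), 9 moved by more than the spread between replicates, 168 lost a call between cell types and 0 reversed. No paired analysis was possible because the library numbers are not shared between groups.

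The median coverage of a C position was 50 to 59 reads in GMP libraries and 85 to 103 in LSK libraries, which limits the precision of the GMP levels more.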
